A study of Mus musculus with 6 samples.

Results

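A set of 10 genes of myocardial fatty acid use was followed at single-nucleus resolution in the left ventricle of R403Q mice: *Ppargc1a*, *Ppara*, *Cd36*, *Angptl4*, *Cpt1a*, *Cpt1b*, *Acadm*, *Acadl*, *Pdk4* and *Ucp3*. They were taken by symbol, and all 10 were present, each once, among the 33696 genes of the files. The data were 6 libraries of nuclei from frozen left ventricle of male mice aged 12 weeks, 2 per group. The WT-CD group held wild-type littermates on control diet. The R403Q-CD group carried a mutation of cardiac myosin heavy chain, written Myh6+/R404Q (R403Q) in the labels, on the same diet. The R403Q-EMPA group carried the same mutation and ate that diet with the SGLT2 inhibitor empagliflozin at 0.15 mg per g, about 15 mg per kg body weight. No library of these 6 came from wild-type mice given empagliflozin, so treatment was compared in the mutant only. Mice were put on the diets when 9 to 10 weeks old. That start and an age of 12 weeks leave 2 to 3 weeks of feeding, and the methods place hearts for RNA sequencing after 2 weeks without naming the nuclei. The labels also state 16 weeks of feeding, which that age does not allow. The labels do not say that each library came from 1 animal, so the p-values measure the spread between these libraries only.

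The adult heart draws most of its energy from fatty acids. They enter the cell through carriers such as CD36, are coupled to carnitine by CPT1 at the outer mitochondrial membrane, and are shortened in the matrix by chain-length-specific acyl-CoA dehydrogenases. The nuclear receptor PPARα, with its coactivator PGC-1α (*Ppargc1a*), drives many of these genes. PDK4 phosphorylates and inhibits pyruvate dehydrogenase, which keeps pyruvate from oxidation when fat is burned, so that *Pdk4* is widely read as a gauge of the choice between fat and glucose.

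After quality filters 46005 nuclei remained, 6409 to 9514 per library, with 23624326 to 37411887 unique molecular identifiers (UMIs) per library. They formed 20 clusters, named by marker genes. Of these nuclei 6968 were cardiomyocyte-like, 717 to 1606 per library, with median depths of 6888 to 12053 UMIs. All 9 cardiomyocyte markers, *Ttn*, *Myh6* and *Ryr2* among them, were found in these nuclei in every library. The class joined 2 clusters. One was led by *Nppa* and *Nppb*, natriuretic peptide genes of stressed myocardium, and held 98 and 80 nuclei in the WT-CD libraries, 186 and 372 in R403Q-CD, and reached 1045 and 612 in R403Q-EMPA. The other held 1033 and 637, 790 and 615, and 506 and 994 nuclei. Since different clusters held most of the class in R403Q-EMPA replicate 1 and in the WT-CD libraries, the levels of *Ppargc1a*, *Ppara*, *Pdk4*, *Cpt1a*, *Cpt1b* and *Ucp3* and the fits of the called genes are also given within the clusters. WT-CD replicate 1 stood apart, with 200.03 counts per 1000000 UMIs of the class (CPM) of summed fibroblast markers in its cardiomyocyte-like nuclei against 56.8 to 94.4 in the other 5 libraries. Library pairs shared 23 to 56 cell barcodes, of 10032 to 13110 each.

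The promoters of the genes around which the results turn are shown first. They are *Cpt1a*, the member that passed the test in cardiomyocyte-like nuclei, and *Ppargc1a*, *Pdk4* and *Ucp3*, which had the smallest p-values between the 2 mutant groups. Each sequence is the 250 bases before the RefSeq transcription start in build GRCm38.p6, read 5′ to 3′ on the gene's strand, with AGGTCA, the half-site bound by PPARα and other nuclear receptors, in capitals on either strand.
Cpt1a, chr19:3323051-3323300, plus strand: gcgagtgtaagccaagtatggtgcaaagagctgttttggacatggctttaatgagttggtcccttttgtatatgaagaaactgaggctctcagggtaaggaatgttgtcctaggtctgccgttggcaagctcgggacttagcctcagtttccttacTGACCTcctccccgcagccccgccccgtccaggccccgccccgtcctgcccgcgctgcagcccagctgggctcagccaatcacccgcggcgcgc
Ucp3, chr7:100472741-100472990, plus strand: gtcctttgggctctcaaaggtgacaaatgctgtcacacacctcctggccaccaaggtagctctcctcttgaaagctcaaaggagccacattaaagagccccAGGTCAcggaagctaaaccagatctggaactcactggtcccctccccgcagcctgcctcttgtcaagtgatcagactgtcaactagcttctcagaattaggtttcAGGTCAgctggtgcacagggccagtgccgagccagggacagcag
Pdk4, chr6:5496279-5496528, minus strand: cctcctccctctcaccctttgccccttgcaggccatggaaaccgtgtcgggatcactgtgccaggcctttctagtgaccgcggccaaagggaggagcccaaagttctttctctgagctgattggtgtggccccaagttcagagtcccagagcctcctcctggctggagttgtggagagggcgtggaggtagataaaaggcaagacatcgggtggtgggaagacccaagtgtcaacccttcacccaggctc
Ppargc1a, chr5:51567726-51567975, minus strand: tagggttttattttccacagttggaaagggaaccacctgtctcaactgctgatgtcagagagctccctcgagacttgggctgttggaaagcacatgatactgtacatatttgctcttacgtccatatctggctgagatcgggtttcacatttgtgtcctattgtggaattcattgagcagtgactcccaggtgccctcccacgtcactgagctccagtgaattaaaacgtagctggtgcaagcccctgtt
Of the 8 members with a promoter in the table, 4 held an AGGTCA match in these windows: *Cpt1a* with 1 match beginning 94 bases before the start, *Ucp3* with 2 beginning 149 and 44 bases before it, *Acadm* with 1 and *Cd36* with 1. The same letters were found in 14.0% of all 32851 windows of this length. *Cpt1b* and *Angptl4* had no promoter window and were not searched. The direct repeat of AGGTCA with 1 base between the copies was in none of the 8 and in 0.0335% of all windows. The extended form TNAAGGTCA, which overlaps AGGTCA, was in none of the 8 and in 1.14% of all. The D-box of clock output factors was likewise in none of the 8 and in 0.819% of all. These are letter matches in short windows and not measured binding sites.

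Across the 10 classes with at least 20 nuclei in every library, 7 of the 10 members had their highest median in cardiomyocyte-like nuclei. *Ppargc1a* had a median of 752 CPM in cardiomyocyte-like nuclei (range over 6 libraries, 434 to 1052) and 28.4 CPM in smooth muscle-like nuclei, the next class, with no overlap between the ranges. *Ppara* had 464 CPM there against 23.9 CPM in fibroblast-like nuclei, its next class. *Cpt1b* had a median of 142 CPM and *Ucp3*, an uncoupling protein of mitochondria in muscle, 37.3 CPM in cardiomyocyte-like nuclei. The next class of both was lymphoid-like, at 14.1 and 2.89 CPM, on 17 and 5 UMIs over the 6 libraries. The lymphoid-like ranges of both overlapped with the class below. *Pdk4* had 132 CPM (range 97.4 to 518 CPM), and 31.0 CPM in smooth muscle-like and 28.5 CPM in fibroblast-like nuclei. The cardiomyocyte-like libraries of these 3 genes lay above every library of the next class. *Acadm* (213 CPM) and *Acadl* (300.2 CPM), the medium- and long-chain acyl-CoA dehydrogenases, were also highest there, but their medians in the other classes were still 64.9 to 113 CPM and 59.7 to 108 CPM.

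*Cpt1a* and *Cd36* were arranged differently. *Cpt1a*, the isoform known from liver, reached 106 CPM in epicardial-like, 104 CPM in myeloid-like and 83.2 CPM in cardiomyocyte-like nuclei, and the ranges of neighbouring classes overlapped down to smooth muscle-like nuclei. *Cd36* was highest in endothelial-like nuclei, at a median of 2274 CPM (range 1960 to 2478 CPM), above the 1320 CPM (1127 to 1429 CPM) of cardiomyocyte-like nuclei, and the ranges of these classes did not overlap. *Angptl4*, which encodes a secreted inhibitor of lipoprotein lipase, was near the floor in all classes, with medians of 5.46 CPM or less. Classes were made from the same nuclei, so these orders are a description. The genes most like *Ppargc1a* over the 10 classes were *Gja3* and *Nmrk2*, both with a Pearson r of 0.984, and *Gm12295* with 0.983. Those most like *Pdk4* were *Sec31b* (0.972), *Gm19277* (0.966) and *Yae1d1* (0.963), and those most like *Cd36* were *Lrrc3b* (0.894), *Tjap1* (0.854) and *Gm28609* (0.850). These coefficients come from 13660 genes compared over 10 points that share libraries.

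**Figure D1:**
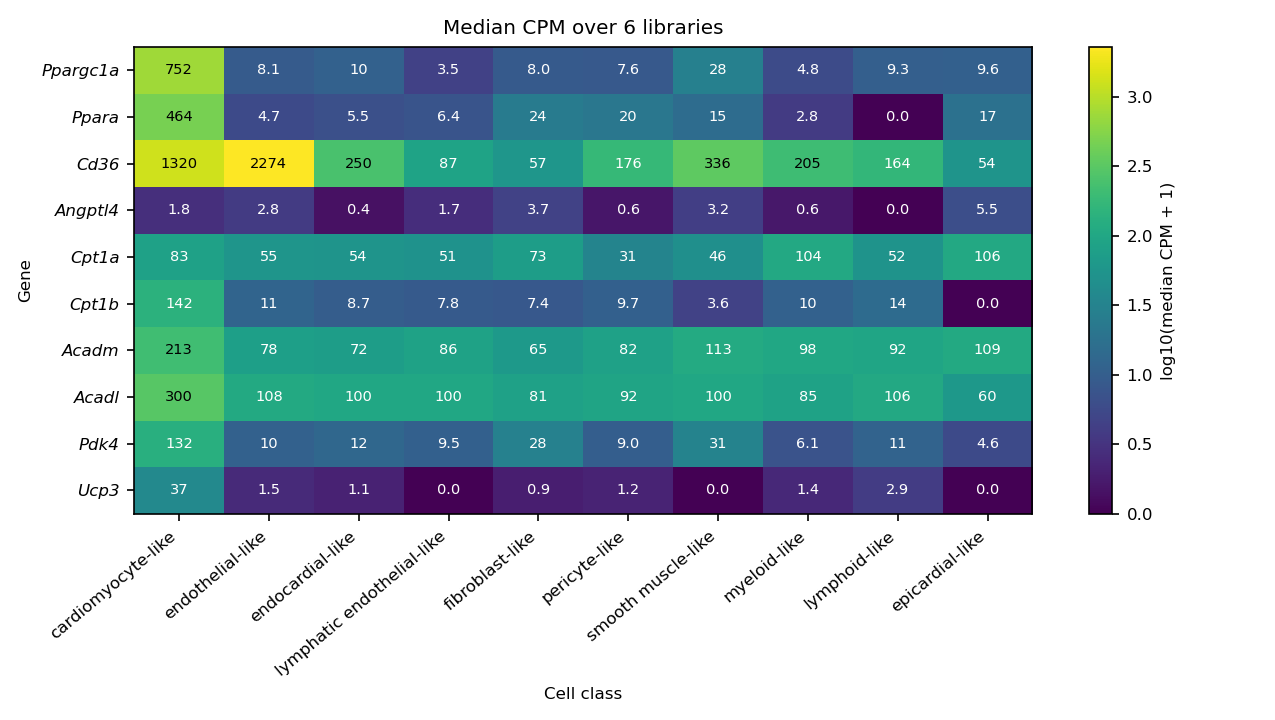
Median CPM over 6 libraries of the 10 genes (rows) in 10 cell classes (columns), with colour on a log10(median CPM + 1) scale. *Ppargc1a*, *Ppara*, *Cpt1b*, *Pdk4* and *Ucp3* are highest in the cardiomyocyte-like column, *Cd36* is highest in the endothelial-like column, and *Cpt1a* is spread over all classes.

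Levels outside cardiomyocyte-like nuclei were read beside the free cardiomyocyte RNA of the droplets. In endothelial-like nuclei the summed cardiomyocyte markers stood at 2.96% to 5.50% of their cardiomyocyte-like level. *Ppargc1a* stood at 0.707% to 1.97% and *Ppara* at 0.524% to 1.24% of theirs, below the markers, and their levels there were read as background. *Cpt1b* stood at 5.81% to 9.55%, close above the markers. *Cpt1a* (42.9% to 70.8%), *Acadm* (26.4% to 37.6%), *Acadl* (31.1% to 43.6%) and *Cd36* (142% to 199%) were far above that share. *Pdk4* stood at 1.75% to 13.5% in endothelial-like nuclei. In fibroblast-like nuclei it stood at 6.20% to 38.7% of its cardiomyocyte-like level, above the markers at 2.07% to 3.71%, and in smooth muscle-like nuclei at 6.86% to 38.5%, where the markers were at 4.11% to 6.49%.

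The main question was how the fatty acid genes of cardiomyocytes differed between the groups. The comparisons are called the mutation contrast (R403Q-CD against WT-CD), the treatment contrast (R403Q-EMPA against R403Q-CD) and the treated-mutant contrast (R403Q-EMPA against WT-CD), and are given in that order where values follow each other. The CPT1 isoforms, which catalyse the same step, the entry of long-chain fatty acids into mitochondria, are given first. *Cpt1a* (ENSMUSG00000024900) was measured at 129.9 and 129.8 CPM in the WT-CD libraries, 85.2 and 81.2 CPM in R403Q-CD, and 78.6 and 66.0 CPM in R403Q-EMPA. All 4 mutant libraries were below both wild-type libraries, and the treated libraries were the lowest. *Cpt1b*, the muscle isoform, was measured at 116 and 109 CPM in WT-CD, 145 and 146 CPM in R403Q-CD, and 138 and 153 CPM in R403Q-EMPA. All 4 mutant libraries were above both wild-type libraries, and the mutant groups overlapped.

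*Cpt1a* fell by 0.92 on the log2 scale in the treated-mutant contrast (SE 0.15), a 0.530-fold level with an adjusted p of 0.0121 (edgeR quasi-likelihood test). The mutation contrast gave -0.66 (SE 0.15) and missed the threshold (adjusted p = 0.214), and the treatment contrast gave -0.26 (SE 0.15, adjusted p = 0.509). *Cpt1b* showed 0.36 (SE 0.15, adjusted p = 0.671) in the mutation contrast, 0.31 (SE 0.15, adjusted p = 0.290) in the treated-mutant contrast and -0.06 (SE 0.15) between the mutant groups. The *Cpt1a* call was lost without either treated library, while the value stayed near that of the full fit, at -1.01 (adjusted p = 0.0654) without R403Q-EMPA replicate 1 and -0.83 (adjusted p = 0.0785) without replicate 2. Without WT-CD replicate 1, the library high in fibroblast markers, the value was -1.01 (adjusted p = 0.00954). It was also lost within each cardiomyocyte cluster, with -0.60 (SE 0.19, adjusted p = 0.134) in the cluster not led by *Nppa* and *Nppb* and -0.78 (SE 0.22, adjusted p = 0.170) in the other. In the first of these clusters the treatment contrast of *Cpt1a* was -0.01 (SE 0.19). *Cpt1b* was at 116 and 108 CPM in WT-CD, 146 and 149 CPM in R403Q-CD and 145 and 150.4 CPM in R403Q-EMPA in that cluster. In the cluster led by *Nppa* and *Nppb* it was at 120 and 126, 133 and 134, and 134 and 157 CPM. The mutant libraries were above the wild-type libraries in both clusters, and no *Cpt1b* contrast passed in either (adjusted p-values of 0.265 to 0.938).

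**Figure D2:**
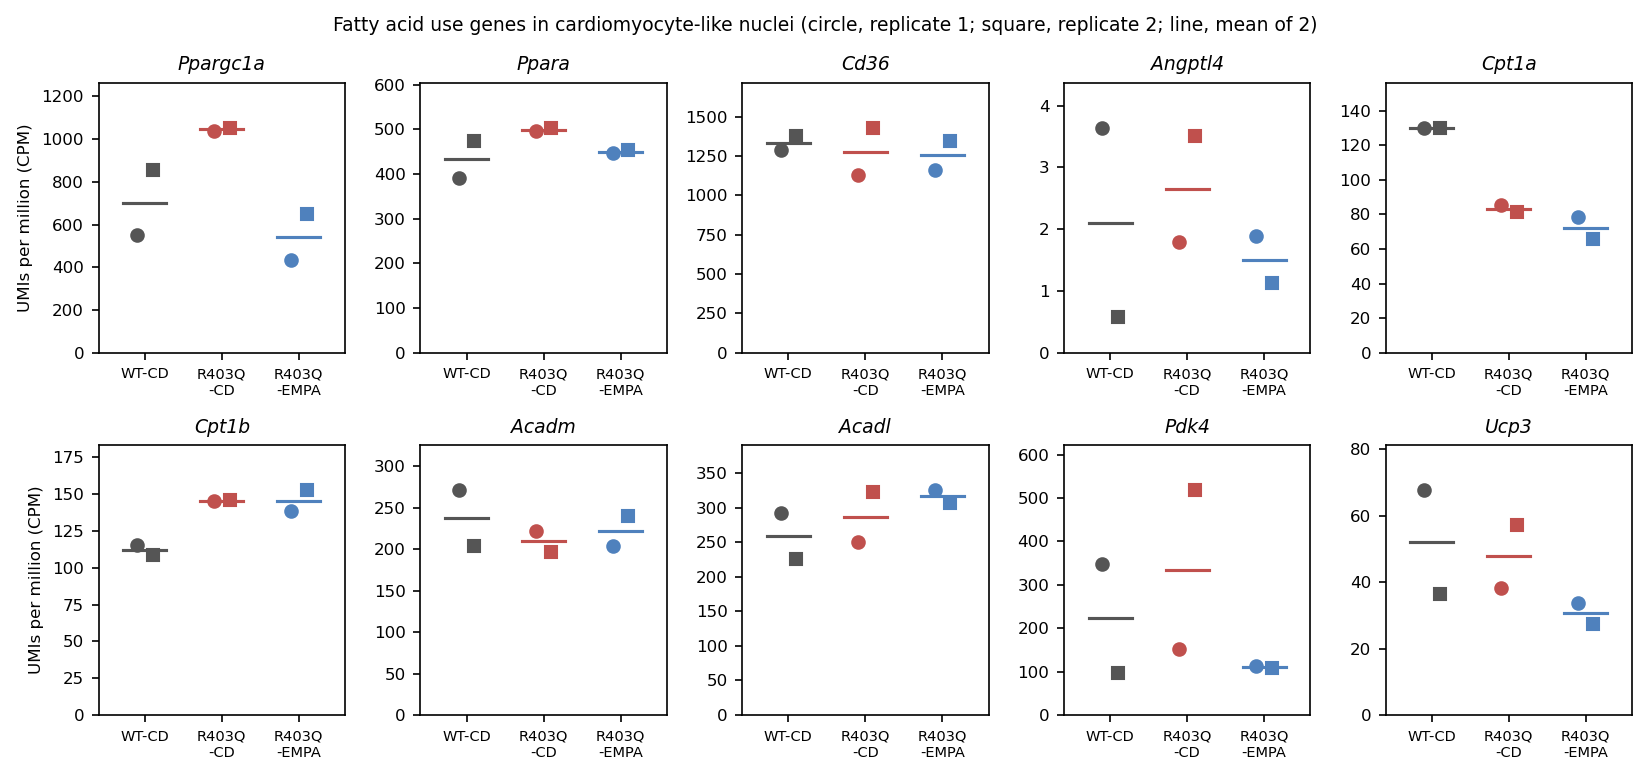
CPM of each of the 10 genes in cardiomyocyte-like nuclei by group (x axis), with a y axis from 0; circles are replicate 1, squares replicate 2 and lines the mean of 2. All 4 mutant libraries lie below the wild-type libraries for *Cpt1a* and above them for *Cpt1b*, and *Pdk4* splits within WT-CD and within R403Q-CD.

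Among the regulators, *Ppargc1a* was high in the untreated mutant. It was measured at 551 and 854 CPM in WT-CD, 1039.5 and 1052 CPM in R403Q-CD, and 434 and 650.2 CPM in R403Q-EMPA. The R403Q-CD libraries lay above all others, and the R403Q-EMPA libraries overlapped with WT-CD. The log2 fold change was 0.54 (SE 0.29, adjusted p = 0.830) in the mutation contrast, -0.998 (SE 0.29, adjusted p = 0.207) in the treatment contrast and -0.46 (SE 0.29, adjusted p = 0.425) in the treated-mutant contrast. These adjusted p-values missed the threshold with edgeR, while DESeq2 gave the contrast between the mutant groups an adjusted p of 0.0133. Within the cluster not led by *Nppa* and *Nppb*, *Ppargc1a* was at 552 and 866, 1063 and 1081, and 484 and 689 CPM in the 3 groups, with -0.91 (SE 0.27, adjusted p = 0.265) between the mutant groups. Within the cluster led by them it was at 522 and 558, 807 and 948, and 404 and 577 CPM, with -0.86 (SE 0.23, adjusted p = 0.278).

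*Ppara* varied little. It was measured at 392 and 474 CPM in WT-CD, 496 and 503 CPM in R403Q-CD, and 447 and 454 CPM in R403Q-EMPA. Its log2 fold changes were 0.18, -0.20 and -0.02 in the 3 comparisons, each with an SE of 0.19, and the 95% interval of the last ran from -0.45 to 0.41.

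*Pdk4* and *Ucp3*, both known PPARα targets, split within groups. *Pdk4* was measured at 348 and 97.4 CPM in WT-CD, 152 and 518 CPM in R403Q-CD, and 112 and 108 CPM in R403Q-EMPA. WT-CD replicate 1 and R403Q-CD replicate 2 were the high libraries, and the treated libraries sat with the lowest. *Ucp3* was measured at 67.6 and 36.3 CPM, 38.3 and 57.3 CPM, and 33.8 and 27.5 CPM in the same order, and the same 2 libraries were the highest. *Angptl4* was also highest in these 2 libraries, at a very low level (3.64 and 0.576, 1.79 and 3.51, 1.89 and 1.12 CPM), on 5 to 41 UMIs per library.

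In the treatment contrast, *Pdk4* gave a log2 value of -1.66 (SE 0.56, adjusted p = 0.250) and *Ucp3* one of -0.70 (SE 0.25, adjusted p = 0.276). The *Pdk4* value rested on R403Q-CD replicate 2: it was -0.54 (adjusted p = 0.900) without that library and -2.28 (adjusted p = 0.263) without R403Q-CD replicate 1. In the treated-mutant contrast they had -1.03 (SE 0.55, adjusted p = 0.334) and -0.80 (SE 0.25, adjusted p = 0.107), and that of *Pdk4* turned to 0.0062 without WT-CD replicate 1. In the mutation contrast, *Pdk4* had 0.62 (SE 0.54) and turned to -0.48 without R403Q-CD replicate 2, and *Ucp3* had -0.11 (SE 0.24). *Angptl4* had 0.37, -0.86 and -0.49 in the 3 contrasts, with SEs of 0.63 to 0.66. None of these passed the test with edgeR. With DESeq2, *Ucp3* passed in the treated-mutant contrast at an adjusted p of 0.0470. Within the cluster not led by *Nppa* and *Nppb*, *Ucp3* was at 69.0 and 36.5 CPM in WT-CD, 39.5 and 61.1 CPM in R403Q-CD, and 49.9 and 30.03 CPM in R403Q-EMPA. Every pair of groups overlapped there, and the treatment contrast was -0.39 (SE 0.28, adjusted p = 0.649). In the led cluster it was -0.70 (SE 0.24, adjusted p = 0.416). *Pdk4* was at 350.4 and 99.7, 155 and 555, and 145 and 101 CPM in the first of these clusters and at 309 and 40.9, 124 and 391, and 92.4 and 120 CPM in the other. Its treatment contrast was -1.57 (SE 0.53, adjusted p = 0.317) and -1.35 (SE 0.58, adjusted p = 0.537) in them.

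The uptake carrier and the β-oxidation enzymes differed little between groups. *Cd36* was measured at 1291 and 1378 CPM in WT-CD, 1127 and 1429 CPM in R403Q-CD, and 1164 and 1349 CPM in R403Q-EMPA. *Acadm* was measured at 271 and 204 CPM, 222 and 197 CPM, and 204 and 239.5 CPM. *Acadl* was measured at 293 and 226 CPM, 250.0 and 324 CPM, and 326 and 308 CPM. The groups of *Cd36* and *Acadm* overlapped in every comparison, and *Acadl* was higher in both treated than in both wild-type libraries. The log2 fold changes of these 3 genes ran from -0.18 to 0.23, with SEs of 0.17 to 0.22, and no 95% interval reached beyond -0.64 or 0.62.

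In counts, 0 of 10 members passed the edgeR test in the mutation contrast, where 0.0974% of the 14380 genes tested did, with 2 members at an unadjusted p under 0.05 (all genes, 6.7%) and 0 by DESeq2 (all genes, 101 or 0.702%). In the treatment contrast it was 0 of 10 (all genes, 0.257%), with 3 members at an unadjusted p under 0.05 (all genes, 12.6%) and 1 by DESeq2 (all genes, 228 or 1.59%). In the treated-mutant contrast it was 1 of 10, *Cpt1a* (all genes, 4.1%), with 2 members at an unadjusted p under 0.05 (all genes, 19.4%) and 2 by DESeq2 (all genes, 747 or 5.19%). The members' median log2 fold changes were 0.16, -0.23 and -0.31 in the 3 comparisons, and those of all genes tested -0.01, 0.01 and 0.00. By CPM alone, the groups of 4 members did not overlap in the mutation contrast, where 3 were higher and 1 was lower. This was true of 32.6% of all genes tested. In the treatment contrast, 5 members were lower without overlap (*Ppargc1a*, *Ppara*, *Pdk4*, *Cpt1a* and *Ucp3*) and 0 were higher. Over all genes tested 53.2% did not overlap, with 20.6% lower and 32.6% higher. Within the cluster not led by *Nppa* and *Nppb*, 3 of these 5 members overlapped between the mutant groups, *Ucp3*, *Cpt1a* and *Ppara* (501 and 530 against 509 and 493 CPM). In the led cluster 1 of the 5 did, *Cpt1a* (68.0 and 58.9 against 59.8 and 57.1 CPM). In the treated-mutant contrast, 4 members did not overlap, 2 higher and 2 lower, against 46.1% of all genes. Each group enters 2 contrasts, so their counts share libraries.

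**Figure D3:**
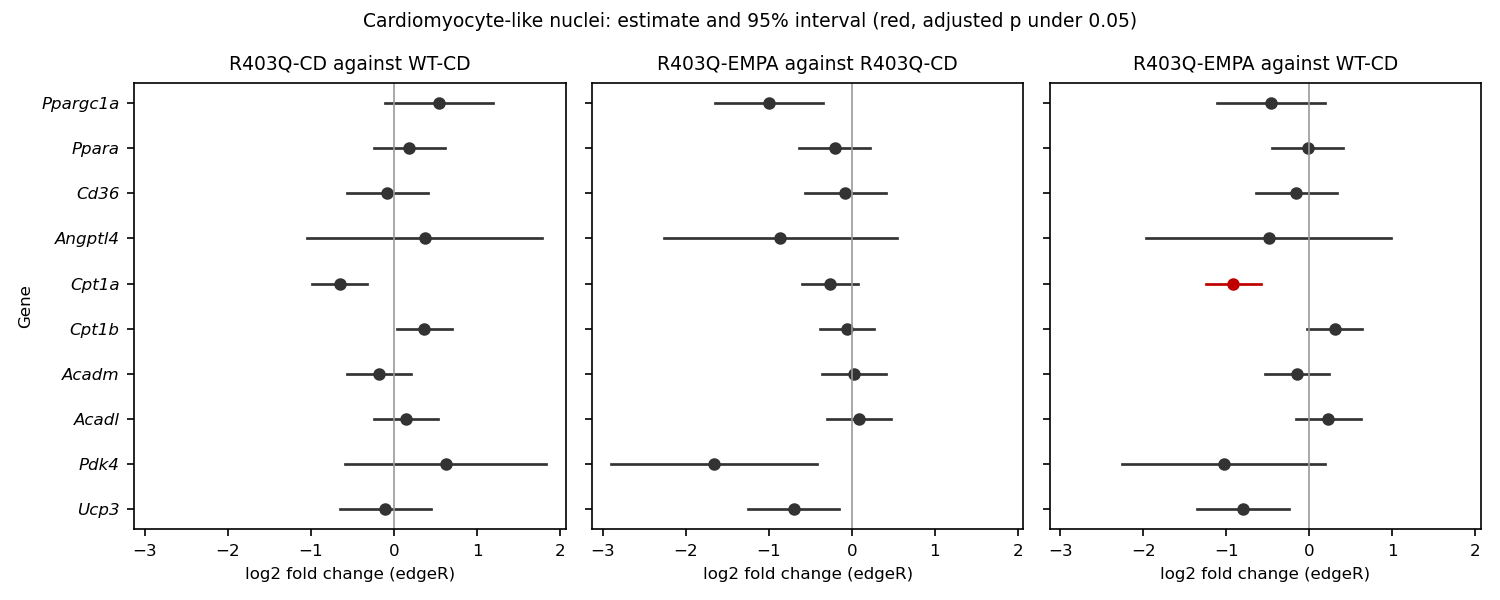
Log2 fold change (x axis, edgeR estimate with its 95% interval) of the 10 genes in cardiomyocyte-like nuclei in the 3 comparisons; red marks an adjusted p under 0.05. *Cpt1a* in the treated-mutant contrast is the 1 red interval, and *Ppargc1a*, *Pdk4* and *Ucp3* lie left of 0 between the mutant groups.

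The share of cardiomyocyte-like nuclei with a UMI of a gene was compared after each nucleus had been thinned to 1000 UMIs, which left out 1 to 17 nuclei per library. For *Ppargc1a* it was 41.0% and 49.6% in WT-CD. The R403Q-CD libraries had 53.5% and 49.3%, and those of R403Q-EMPA 30.8% and 41.3%. Endothelial-like nuclei thinned alike had 0.305% to 1.05%, at median depths of 2117 to 3426 UMIs before thinning. For *Cpt1a* it was 10.6% and 12.5%, 7.40% and 5.94%, and 7.68% and 6.11%, with Wilson 95% intervals of 8.91% to 12.5% in WT-CD replicate 1 and 5.04% to 7.39% in R403Q-EMPA replicate 2. Unthinned, the *Cpt1a* shares were 57.3% and 66.1%, 49.1% and 48.6%, and 41.5% and 33.1%. The thinned *Cpt1b* shares were 10.6% and 12.4%, 15.0% and 11.7%, and 13.3% and 13.5%, and those of the mutant on control diet overlapped with wild type. For *Pdk4* the thinned share was 24.6% and 8.01%, 12.4% and 32.1%, and 9.12% and 8.54%. The mean difference in *Cpt1a* was -4.86 percentage points in the mutation contrast and -4.64 in the treated-mutant contrast, and that in *Ppargc1a* was -15.4 points in the treatment contrast. An exact two-sided permutation test gave 0.333 for each, its lower limit with 2 libraries a group. Intervals cover counting error only.

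The wider pathway was read from 90 further genes of fatty acid and pyruvate use, of which 84 passed the filter on low counts in cardiomyocyte-like nuclei. In the treated-mutant contrast 5 of the 84 passed the test, 4 lower and 1 higher, where 589 of the 14380 genes tested (4.1%) did, and 24 of the 84 had an unadjusted p under 0.05, against 19.4% of all genes. The median was -0.06 over the 84 and 0.00 over all genes. *Slc22a5*, the carnitine importer of the plasma membrane, was measured at 83.3 and 82.5 CPM in WT-CD, 53.4 and 54.1 CPM in R403Q-CD, and 47.3 and 40.8 CPM in R403Q-EMPA. All mutant libraries lay below the wild-type libraries, as for *Cpt1a*, and the fall against WT-CD was 0.98 on the log2 scale with treatment (change of -0.98, SE 0.14, adjusted p = 0.00824). *Acad11*, an acyl-CoA dehydrogenase of very-long-chain substrates, was at 79.8 and 77.2, 55.4 and 55.9, and 45.7 and 50.8 CPM (-0.77, SE 0.15, adjusted p = 0.0202). *Ehhadh*, the peroxisomal bifunctional enzyme, was at 26.6 and 19.0, 22.5 and 18.6, and 14.9 and 12.4 CPM (-0.80, SE 0.19, adjusted p = 0.0469). *Dgat2*, which makes triglyceride, was at 123 and 110.3, 91.7 and 111, and 59.7 and 72.8 CPM (-0.88, SE 0.17, adjusted p = 0.0198). *Pparg*, the PPAR isoform of lipid storage, rose, from 47.7 and 46.0 CPM in WT-CD to 70.7 and 87.2 CPM in R403Q-CD and 129.7 and 83.9 CPM in R403Q-EMPA (1.12, SE 0.20, adjusted p = 0.0166). The count of 5 was 8 without either WT-CD library, 2 without R403Q-CD replicate 1, 3 without R403Q-CD replicate 2, 1 without R403Q-EMPA replicate 1 and 3 without R403Q-EMPA replicate 2. The calls over all genes, 589 with every library, were 932 and 667 without WT-CD replicates 1 and 2, 299 and 328 without those of R403Q-CD, and 142 and 345 without those of R403Q-EMPA. *Slc22a5* passed with each library left out except R403Q-EMPA replicate 2 (adjusted p = 0.0507), *Pparg* with each except R403Q-EMPA replicate 1 (0.81, adjusted p = 0.117), and *Dgat2* with each except R403Q-CD replicate 1 (-0.87, adjusted p = 0.0523) and R403Q-EMPA replicate 1 (-0.71, adjusted p = 0.191). *Acad11* was lost in 4 and *Ehhadh* in 5 of these 6 fits. The fits of these 5 genes kept their sign. Each such fit left 1 library in a group, so its spread came from the other groups.

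The steps of the pathway were read in the treated-mutant contrast, where 4.1% of all genes were called and 19.4% had an unadjusted p under 0.05. The called genes were 1 of 4 in the carnitine shuttle, 1 of 14 in mitochondrial β-oxidation and 1 of 5 in peroxisomal oxidation. A further 1 of 18 nuclear regulators and 1 of 7 genes of lipid storage and release were called. The β-oxidation call was *Acad11*, which the list used here placed in that step. With edgeR none was called among 14 genes of uptake, binding and activation, 3 of malonyl-CoA control, 8 PPARα-responsive genes and 11 of pyruvate entry. In these steps 1, 1, 3 and 3 had an unadjusted p under 0.05. The steps with a call had 1, 5, 4, 3 and 3 such genes, in the order given above. The 5 of β-oxidation and the 4 of peroxisomal oxidation were all lower. Of the 14 β-oxidation genes 11 had a log2 fold change below 0 (all genes, 50.1%), with a median of -0.24. In the treatment contrast 8 of the 14 were below 0 (all genes, 48.8%), with a median of -0.059, 0 called and 0 at an unadjusted p under 0.05. In the mutation contrast 13 of these 14 were below 0 (all genes, 52.2%), with a median of -0.15 and 0 called, 2 of them at an unadjusted p under 0.05. There the 84 genes gave 0 calls with edgeR and 0 with DESeq2 (all genes, 0.0974% and 0.702%), with 10 at an unadjusted p under 0.05 (all genes, 6.7%). The 3 smallest p-values belonged to *Slc22a5* (-0.64, SE 0.14, adjusted p = 0.208), *Pparg* (0.74, SE 0.20, adjusted p = 0.333) and *Acad11* (-0.51, SE 0.15, adjusted p = 0.380). In the treatment contrast edgeR called 0 and DESeq2 2 of the 84 (all genes, 0.257% and 1.59%), with 13 at an unadjusted p under 0.05 (all genes, 12.6%). The leading genes were *G0s2*, an inhibitor of triglyceride lipase (1.07, SE 0.23, adjusted p = 0.0969), *Dgat2* (-0.67, SE 0.17, adjusted p = 0.140) and the fatty acid transporter *Slc27a1* (-0.64, SE 0.17, adjusted p = 0.164).

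Within the cluster not led by *Nppa* and *Nppb* the 5 changes kept their sign in the treated-mutant contrast and none of the 5 passed. *Slc22a5* had -0.62 (SE 0.16, adjusted p = 0.0821), *Pparg* 0.80 (SE 0.20, adjusted p = 0.0641), *Acad11* -0.62 (SE 0.16, adjusted p = 0.0674), *Dgat2* -0.56 (SE 0.16, adjusted p = 0.105) and *Ehhadh* -0.48 (SE 0.20, adjusted p = 0.259). In the cluster led by *Nppa* and *Nppb* none of the 5 passed either. *Slc22a5* had -0.94 (SE 0.29, adjusted p = 0.208) and *Pparg* 0.85 (SE 0.30, adjusted p = 0.259) there. *Dgat2* had -0.64 (SE 0.27, adjusted p = 0.360), *Ehhadh* -0.34 (SE 0.56, adjusted p = 0.860) and *Acad11* -0.09 (SE 0.28, adjusted p = 0.935). The WT-CD libraries of that cluster held 24 and 11 UMIs of *Acad11* and 5 and 5 of *Ehhadh*. In the cluster not led by these genes *Cpt1a* was at 132 and 131 CPM in WT-CD, 87.0 and 87.6 CPM in R403Q-CD, and 110.0 and 70.8 CPM in R403Q-EMPA, so all mutant libraries were still below the wild-type libraries. The share of the class-wide differences that came from the mix of clusters was not tested.

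**Figure D4:**
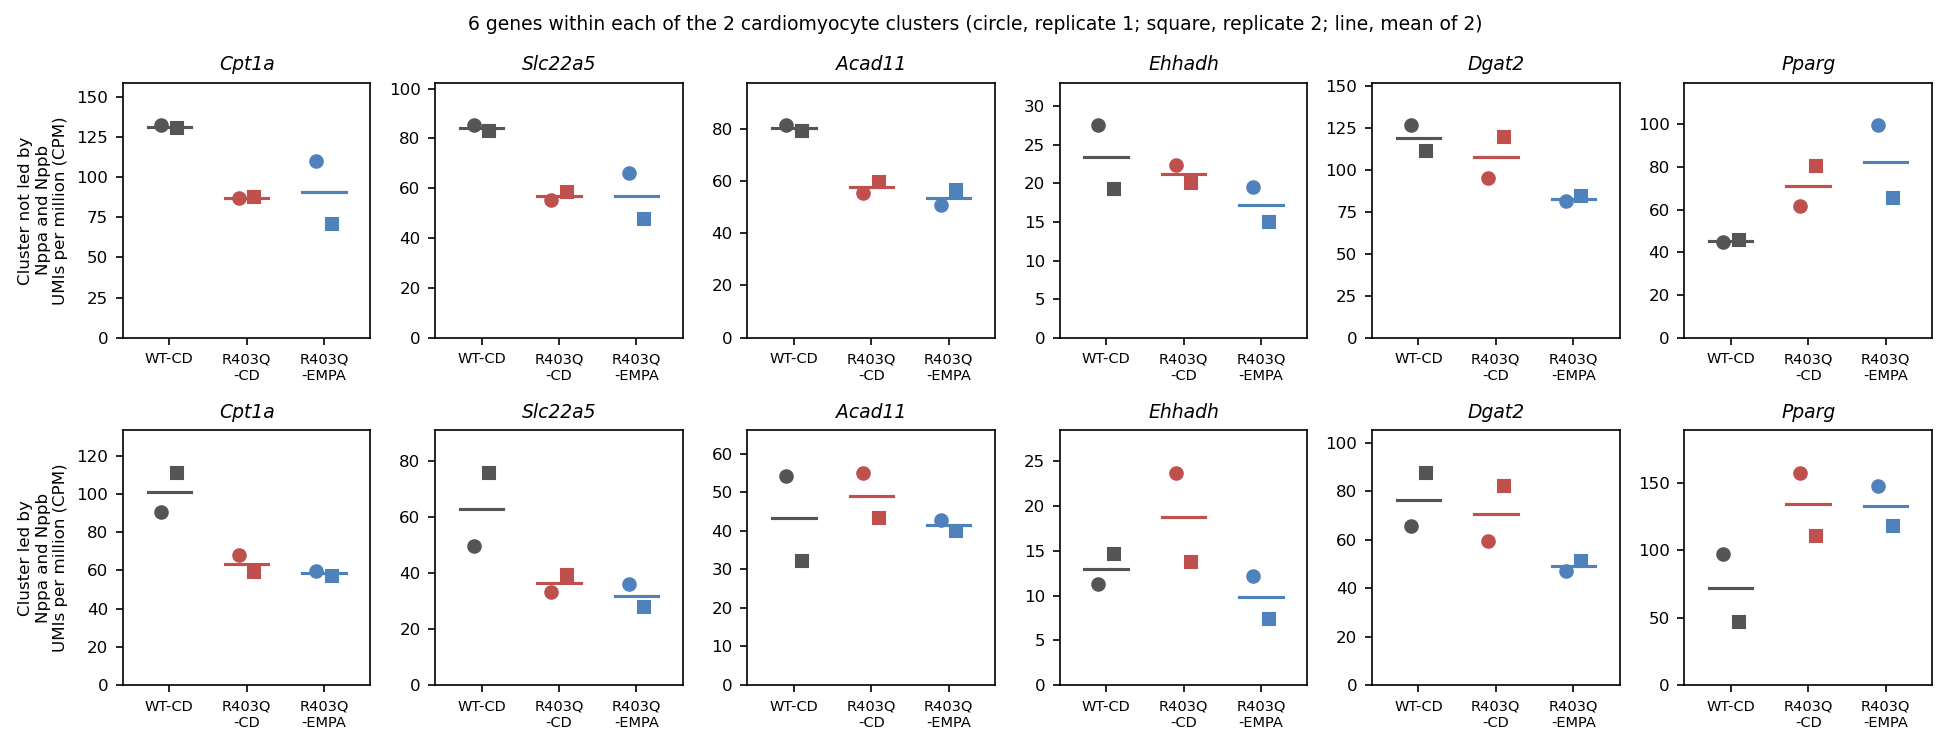
CPM of *Cpt1a* and the 5 called genes of the wider list within the cardiomyocyte cluster not led by *Nppa* and *Nppb* (top) and within the cluster led by them (bottom), by group, with y axes from 0; circles are replicate 1, squares replicate 2 and lines the mean of 2. For *Cpt1a* and *Slc22a5* the mutant libraries lie below the wild-type libraries in both rows, while *Acad11* and *Ehhadh* overlap in the bottom row.

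Other gene groups were measured in the same nuclei, where 4.1% of all genes were called in the treated-mutant contrast. The summed clock genes were at 997 and 789 CPM in WT-CD, 835 and 866 CPM in R403Q-CD, and 652 and 702 CPM in R403Q-EMPA. This sum joined genes that ran opposite ways. *Clock* was at 70.0 and 92.7 CPM in WT-CD and 117 and 140 CPM in R403Q-EMPA, and *Arntl* and *Cry1* also rose. *Tef* was at 316 and 217 against 128 and 153 CPM, and *Per3*, *Dbp*, *Nr1d1*, *Nr1d2*, *Cry2*, *Hlf* and *Ciart* also fell. *Npas2* and *Per2* overlapped. Of the 13 genes 7 passed the test in the treated-mutant contrast, 6 lower and 1 higher. The summed cytosolic chaperones were at 115 and 90.2, 192 and 161, and 416 and 348 CPM, and 7 of 7 passed there, all higher. The summed natriuretic and stress-type genes were at 1749 and 1268, 1415 and 1884, and 3557 and 2033 CPM, and 2 of 6 passed there, both higher. The summed glucocorticoid-responsive genes were at 1285 and 2402, 2678 and 2502, and 1841 and 2465 CPM, lowest in WT-CD replicate 1. In the treated-mutant contrast 1 of the 8 passed, which was higher. Most of the sum was *Zbtb16*, at 1005 and 2088, 2298 and 2097, and 1481 and 2045 CPM. *Per1*, *Mt1* and *Sgk1* were higher in WT-CD replicate 1 than in replicate 2, and the others of the list were lower. *Pdk4* was high in WT-CD replicate 1 and in R403Q-CD replicate 2. The share of mitochondrially encoded UMIs was highest in the treated libraries, at 1.23% and 1.33%, against 1.13% and 0.918% for WT-CD and 0.877% and 0.951% for the untreated mutant. The 7 adipocyte markers summed to 0.199 to 1.12 CPM in cardiomyocyte-like nuclei, and each R403Q-EMPA library held 5 adipocyte-like nuclei, where the others held 0 or 1. The part of all these in the results above was not tested.

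In endothelial-like nuclei, 12458 in all, *Pdk4* (ENSMUSG00000019577) was the member that passed the test, 1 of 10 in the treated-mutant contrast (all 13996 genes tested, 0.807%). There 3 members had an unadjusted p under 0.05 (all genes, 13.1%), and DESeq2 called 1 (all genes, 1.44%). It was measured at 6.09 and 4.58 CPM in WT-CD, 9.88 and 10.1 CPM in R403Q-CD, and 15.2 and 11.8 CPM in R403Q-EMPA, on 25 to 140 UMIs per library. No groups overlapped, WT-CD being lowest and R403Q-EMPA highest, with log2 fold changes of 1.40 (SE 0.25, adjusted p = 0.0430) in the treated-mutant contrast, 0.98 (SE 0.25, adjusted p = 1.00) in the mutation contrast and 0.43 (SE 0.23) between the mutant groups. The call was lost without any of the 6 libraries other than WT-CD replicate 1, with adjusted p-values of 0.0514 to 0.414 and log2 fold changes of 1.19 to 1.52. *Cpt1b* ran alongside it, at 7.30 and 6.33, 11.7 and 10.4, and 12.7 and 14.6 CPM (0.99, SE 0.23, adjusted p = 0.102 in the treated-mutant contrast, and 0.74, SE 0.23, adjusted p = 1.00 in the mutation contrast). *Angptl4* had 1.34 (SE 0.53, adjusted p = 0.320) in the treated-mutant contrast on 8 to 51 UMIs per library.

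The 9 summed cardiomyocyte markers in endothelial-like nuclei moved in the same direction, at 2598 and 1861 CPM in WT-CD, 3068 and 3076 CPM in R403Q-CD, and 3346 and 3220 CPM in R403Q-EMPA. At each library's marker share, a level in proportion to cardiomyocyte-like nuclei would put *Pdk4* at 17.5 and 2.89, 7.46 and 25.9, and 6.17 and 5.38 CPM. The measured values were below this in WT-CD replicate 1 and R403Q-CD replicate 2 and above it in the other 4 libraries. For *Cpt1b* the corresponding values were 5.83 and 3.23, 7.13 and 7.28, and 7.61 and 7.64 CPM, which were below the measured value in every library. For *Ppargc1a* such a level was 23.9 to 52.5 CPM, against 3.90 to 8.55 CPM measured. For *Ppara* it was 14.0 to 25.1 CPM, against 2.64 to 5.39 CPM measured. It was above the measured value of both genes in every library, so it is no estimate of the free RNA of each gene. In the mutation contrast and in the treatment contrast, 0 of 10 members passed (all genes, 0% and 0.25%), with 2 and 0 at an unadjusted p under 0.05 (all genes, 3.6% and 9.84%) and 0 by DESeq2 in both (all genes, 0.0572% and 0.922%). *Cd36*, at 2024 and 1960, 2237 and 2464, and 2310 and 2478 CPM, was higher in every mutant than in every wild-type library, with a log2 fold change of 0.28 (SE 0.16) in each mutant group against WT-CD and unadjusted p-values of 0.119 and 0.122.

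**Figure D5:**
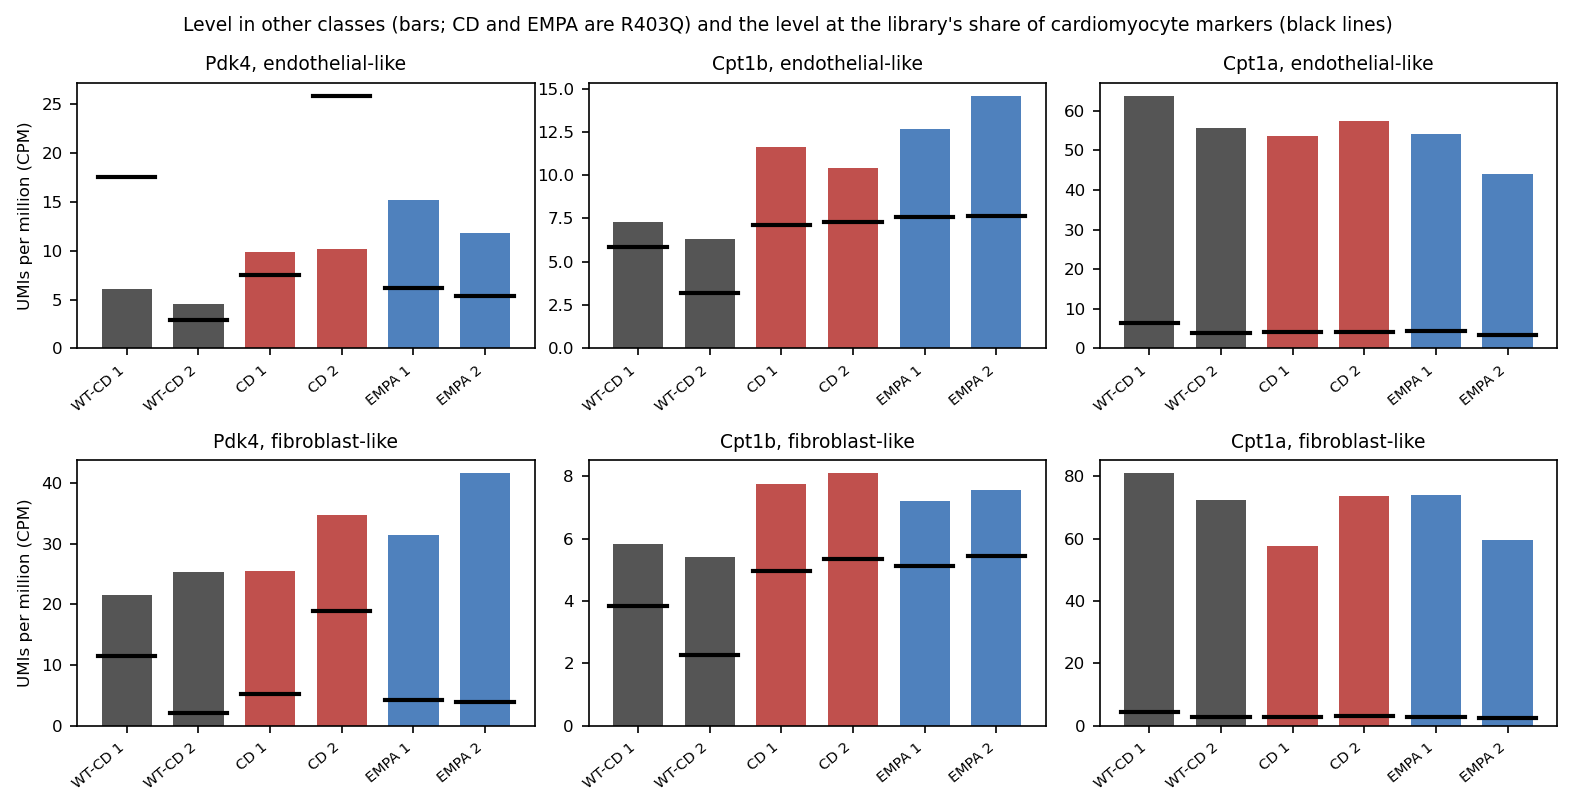
CPM of *Pdk4*, *Cpt1b* and *Cpt1a* in endothelial-like (top) and fibroblast-like (bottom) nuclei of each library (bars; CD and EMPA are the R403Q groups), with y axes from 0. Black lines give the level in proportion to cardiomyocyte-like nuclei at that library's share of cardiomyocyte markers. They are close to or above the *Pdk4* bars of several endothelial-like sums and far below the *Cpt1a* bars. For *Ppargc1a*, not drawn, that level lay above the measured one in every library of both classes.

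In fibroblast-like nuclei, 14146 in all, no member passed the edgeR test in any of the contrasts (all 15081 genes tested, 0%, 0.404% and 1.24%), with 1, 1 and 2 members at an unadjusted p under 0.05 (all genes, 3.06%, 13.4% and 14.4%) and 0 by DESeq2 in each (all genes, 0.0597%, 1.63% and 2.69%). *Pdk4* was at 21.6 and 25.4, 25.5 and 34.8, and 31.4 and 41.6 CPM, with 0.58 (SE 0.21, adjusted p = 0.259) in the treated-mutant contrast. *Cd36* had 0.37 (SE 0.14, adjusted p = 0.280) in the same comparison, at 3.09% to 5.64% of its cardiomyocyte-like level, where the cardiomyocyte markers stood at 2.07% to 3.71%. At the marker share it would have 42.6 and 28.5, 38.5 and 52.2, and 43.1 and 47.9 CPM. The measured levels were 52.8 and 42.6, 51.8 and 60.9, and 65.6 and 60.7 CPM. That share put *Ppargc1a* at 16.1 to 38.4 CPM, above its measured level in every library, and *Ppara* below its own. The part of free RNA in the *Cd36* difference was not tested. *Cpt1b* had 0.50 (SE 0.22, adjusted p = 1.00) in the mutation contrast, and *Ppargc1a*, at background levels of 5.38 to 10.8 CPM, had -0.67 (SE 0.27, adjusted p = 0.341) in the treatment contrast.

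*Cpt1a* in these 2 classes had log2 fold changes of -0.25 (SE 0.14) in endothelial-like and -0.24 (SE 0.16) in fibroblast-like nuclei in the treated-mutant contrast, and neither passed the test. The difference between classes was not tested. Of the wider list 81 genes were tested in endothelial-like and 84 in fibroblast-like nuclei, and edgeR called none in the 3 comparisons. In endothelial-like nuclei 3, 4 and 11 of 81 had an unadjusted p under 0.05 in the 3 contrasts, against 3.6%, 9.84% and 13.1% of all genes. In fibroblast-like nuclei it was 4, 8 and 8 of 84, against 3.06%, 13.4% and 14.4% of all genes. DESeq2 called none of these lists in either class, except 2 genes in fibroblast-like nuclei in the treated-mutant contrast (all genes, 2.69%). The leading endothelial genes in the treated-mutant contrast were *Plin2*, a lipid droplet coat protein (0.63, SE 0.15, adjusted p = 0.102), *Cpt2*, the carnitine palmitoyltransferase of the inner membrane (0.70, SE 0.23, adjusted p = 0.240), and the lipoprotein receptor *Vldlr* (0.66, SE 0.24, adjusted p = 0.296). The leading fibroblast genes were *Esrrg*, an orphan nuclear receptor of oxidative metabolism (-0.90, SE 0.18, adjusted p = 0.0542), *Slc27a1* (1.32, SE 0.30, adjusted p = 0.0810) and *Pparg* (-1.02, SE 0.31, adjusted p = 0.171), which turned to 1.13 without the mitochondrial filter. Leaving out WT-CD replicate 1 brought 6 calls of the wider list in endothelial-like and 4 in fibroblast-like nuclei, while those over all genes rose from 113 to 570 and from 187 to 583. Between the mutant groups the leading genes were *Plin2* (0.52), *Dlat* (-0.40) and *Pparg* (-0.46) in endothelial-like and *Slc27a1* (1.00) and *G0s2* (0.96) in fibroblast-like nuclei. In the mutation contrast they were *Vldlr* (0.72), *Lipe* (0.37) and *Pparg* (0.42) in endothelial-like and *Esrrg* (-0.65), *Acsl3* (-0.34) and *Acot13* (0.42) in fibroblast-like nuclei, all as log2 fold changes with adjusted p-values of 0.212 to 1.00 in these 2 comparisons.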

How the data were processed

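Nuclei of the left ventricle were profiled by 3′ droplet single-nucleus RNA sequencing in 6 libraries, 2 for every group. The authors deposited raw UMI counts per gene and barcode, made per the submitters' processing notes with Cell Ranger 8.0.1 and GRCm39. The annotation release and the handling of intronic reads are not given in the sources used here. Nuclei with at least 500 UMIs, at least 300 genes and at most 5% mitochondrial UMIs were kept, and nuclei that Scrublet marked as doublets (3.68% to 6.45% per library) were removed. Clusters came from scanpy 1.11.5 (2000 variable genes, 30 components, 15 neighbours, Leiden resolution 1), 3 members being among the variable genes, and were called X-like where at least 3 listed markers were enriched by at least 2-fold; 32 nuclei stayed unnamed. Since the authors' cell annotation was not used here, classes may differ from theirs.

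Counts were summed per library and class and tested with edgeR 4.0.16 (TMM, filterByExpr, quasi-likelihood F test, all 6 libraries, 3 residual degrees of freedom, Benjamini-Hochberg adjustment over all genes of a class and comparison, called at an adjusted p under 0.05), after a test on simulated data. CPM are UMIs per 1000000 of the class sum. Alternatives were RLE size factors, no count filter, DESeq2 1.42.0, other nucleus filters and clustering without these genes. Others were 2-group fits, each library left out and, chosen after seeing the data, each cardiomyocyte cluster alone. A fit with a library left out had 1 library in that group, so its spread came from the other groups. Replicate libraries differed beyond sampling noise (chi-square per degree of freedom 2.96 to 23.5). Named genes were all members, plus the called genes of the wider list or, where none was called, the 3 with the smallest p; a member was given a fold change in endothelial-like and fibroblast-like nuclei at an unadjusted p under 0.05, and the fold changes of *Cd36* (endothelial-like), *Cpt1a* (both classes) and *Pdk4* (treatment contrast, endothelial-like) were added after their values were seen. Of the genes this rule names, 1 is not reported here. The members and lists were chosen with earlier results of these data known. No columns of other comparisons were used.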

Additional observations from a re-analysis of the deposited data

Results flagged for a closer look

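Differences between cell classes were looked at because, for 4 combinations of gene and comparison, both libraries of a group moved one way in 1 class and the opposite way in another. By the same rule, the groups of 29.3% to 53.2% of all genes tested did not overlap within a class and comparison. The share of all genes that ran opposite ways in 2 classes was not counted. None of the class differences named here was tested. *Pdk4* had a log2 fold change of -1.66 in cardiomyocyte-like and 0.43 in endothelial-like nuclei in R403Q-EMPA against R403Q-CD, and the first of these was -0.54 without R403Q-CD replicate 2. *Ppara* had 0.18 in cardiomyocyte-like and -0.49 in endothelial-like nuclei in R403Q-CD against WT-CD, the latter from 2.64 to 5.39 CPM per library, 0.524% to 1.24% of its cardiomyocyte-like level. The cardiomyocyte markers stood at 2.96% to 5.50% there, so that this *Ppara* value was read as background. *Ucp3* had -0.80 in cardiomyocyte-like and 0.87 in endothelial-like nuclei in R403Q-EMPA against WT-CD, the latter on 4 to 15 UMIs per library. In endothelial-like nuclei it stood at 0.969% to 6.32% of its cardiomyocyte-like level, a range that spans that of the markers. *Cpt1b* had 0.25 in endothelial-like and -0.15 in fibroblast-like nuclei in R403Q-EMPA against R403Q-CD.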

How the results depend on the processing

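Calls rested on small margins. Depth was low for *Angptl4* (5 to 41 UMIs per library in cardiomyocyte-like and 8 to 51 in endothelial-like nuclei), for *Ucp3* outside cardiomyocyte-like nuclei (4 to 15 in endothelial-like and 1 to 19 in fibroblast-like nuclei) and for *Ppara* in endothelial-like nuclei (12 to 46). Without the mitochondrial filter the doublet caller marked 0% in R403Q-EMPA replicate 1, so that setting kept its doublets. No paired analysis was possible because the labels give no replicate number within a group, and the numbers used here only name libraries. The cause of the changes below was not tested.

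Members called in cardiomyocyte-like nuclei numbered 0, 0 and 1 in the mutation, treatment and treated-mutant contrasts. They were 2, 3 and 3 with no filter on low counts, where the calls over all genes rose from 14, 37 and 589 of 14380 to 316, 663 and 1420 of 24764. They were 1 in the mutation contrast without the mitochondrial filter, and 1 and 2 in the treatment and treated-mutant contrasts with DESeq2. In the treated-mutant contrast they were 0 to 2 with a library left out and 0 in either cardiomyocyte cluster alone. The wider list, with 0, 0 and 5, had 1, 4 and 9 calls with no count filter, 10 in the mutation and 9 in the treated-mutant contrast without the mitochondrial filter (all genes, 520 and 1070 of 15080), 2 in the treatment contrast with DESeq2 (all genes, 228 of 14380), and 2 and 3 in the treatment and treated-mutant contrasts with only the 2 groups fitted (all genes, 207 of 14147 and 296 of 13863). With a library left out it had 0 to 2 in the treatment and 1 to 8 in the treated-mutant contrast (all genes, 0 to 244 and 142 to 932), and in the latter 2 in the cluster not led by *Nppa* and *Nppb* and 0 in the other (all genes, 247 of 13499 and 12 of 10672).

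In endothelial-like nuclei the members' single treated-mutant call became 2 with no count filter, 0 with only the 2 groups and 0 to 1 with a library left out, where the calls over all genes went from 113 of 13996 to 806 of 23580, 20 of 13350 and 15 to 570. The wider list there had 0 to 1 calls in the mutation contrast and 0 to 6 in the treated-mutant contrast with a library left out, and 2 in the latter with no count filter. In fibroblast-like nuclei the members had 1 treated-mutant call with no count filter. The wider list had 1, 4 and 4 calls with no count filter (all genes, 101, 1021 and 1126 of 24768), 1 in the treatment contrast with only the 2 groups (278 of 14424), and, in the treated-mutant contrast, 2 with DESeq2 (406 of 15081), 1 with doublets kept (183 of 15076) and 1 with at least 1000 UMIs per nucleus (190 of 15092). With a library left out it had 0 to 1 in the treatment and 0 to 4 in the treated-mutant contrast (all genes, 0 to 302 and 18 to 583).

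Directions turned in cardiomyocyte-like nuclei for changes that had not passed the test. *Ppara* turned to -0.023 in the mutation contrast without the mitochondrial filter, and in the treated-mutant contrast to 0.0115 with no count filter, 0.00502 with doublets kept, and 0.14 and 0.19 in the clusters not led and led by *Nppa* and *Nppb*. Without the mitochondrial filter *Acadm* turned to 0.36, -0.32 and 0.040 in the mutation, treatment and treated-mutant contrasts, and *Acadl* to -0.16 in the treatment contrast. In the cluster led by *Nppa* and *Nppb* the treatment contrast turned to 0.11 for *Cpt1b*, -0.0026 for *Acadl* and 0.010 for *Cd36*, and the mutation contrast to 0.0028 for *Ucp3* and 0.13 for *Acad11*. In the other cluster *Cd36* turned to 0.029 in the treatment and *Acadm* to 0.0056 in the treated-mutant contrast. In fibroblast-like nuclei *Pparg* turned to 1.13 in the treated-mutant contrast without the mitochondrial filter.

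With a library left out, the mutation contrast ran from -0.025 to 0.45 for *Ppara*, -0.48 to 1.67 for *Pdk4*, -0.028 to 0.31 for *Acadl*, -0.23 to 0.088 for *Cd36*, -0.40 to 0.30 for *Ucp3* and -0.34 to 2.09 for *Angptl4*. The treatment contrast ran from -0.16 to 0.041 for *Cpt1b*, -0.13 to 0.16 for *Acadm*, -0.070 to 0.26 for *Acadl* and -0.22 to 0.083 for *Cd36*. The treated-mutant contrast ran from -0.82 to 0.030 for *Ppargc1a*, -0.24 to 0.25 for *Ppara*, -1.62 to 0.0062 for *Pdk4*, -0.30 to 0.011 for *Cd36* and -1.20 to 1.22 for *Angptl4*. Of the alternative values of a fold change, 915 kept their direction and side of the threshold, 38 lost and 40 gained a call, and 38 turned. Most of the 915 belonged to fold changes that were not called and stayed so. The 38 losses all fell on the few called ones. These were *Cpt1a* and the called genes of the wider list in cardiomyocyte-like nuclei, and *Pdk4* in endothelial-like nuclei. Of the alternative differences in thinned shares, 8 moved beyond the spread between replicates, all with thinning to 2000 UMIs, and 142 stayed within it. With 2 libraries a group, leaving 1 out cannot move a difference beyond that spread. Only the thinning to 2000 UMIs could therefore show a move.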
